A study of Mus musculus with 36 samples.

Results

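The erythroid transcription factors of the GATA1 complex were followed by RNA-seq in the peripheral blood of Townes sickle cell mice. The genes were chosen by name: Gata1, Zfpm1, Klf1, Klf3, Tal1, Lmo2, Ldb1, Gfi1b and Foxo3, which are 9 of the 16812 genes in the count table once the RefSeq transcript row with the highest total was kept for each gene. Earlier results of these data were known when they were chosen. All 9 passed a filter on low counts, which left 11953 genes for testing. Gfi1b passed with very few reads.

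The animals in every group were Townes sickle cell mice, a humanised line whose red cells make human sickle haemoglobin. They received MIR29B, labelled as overexpression and described in the series title as cholesterol-modified, or a scrambled (Scr) control, each delivered by a mini-osmotic pump at a dose of 2 or 3 mg/kg, and blood was taken at weeks 0, 2 and 4. This gave 12 groups of 3 libraries, so that each arm had 6 libraries per week. The labels do not say whether the blood of different weeks came from the same animals, whether week 0 preceded dosing, or whether animals were pooled. They also do not say that the 3 libraries of a group came from separate animals, and p-values then measure only the spread between these libraries. Globin mRNA had been removed with a capture kit, so globin transcripts, the best known output of these factors, are not reported here. The labels name the cells as erythrocytes.

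GATA1 is the zinc finger protein that drives the red cell programme, and it works with FOG1, the protein of Zfpm1, which it needs for both activation and repression. It meets a second assembly on erythroid enhancers, in which TAL1 is joined by the bridging protein LMO2 to LDB1, whose self-association brings distant elements together. KLF1 activates globin and many other red cell genes through CACCC elements, KLF3 is a repressor that binds the same kind of element, GFI1B recruits a histone demethylase complex, and FOXO3 works beside GATA1 late in maturation, when the cell clears its organelles and raises its antioxidant defence.

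The microRNA given to the mice belongs to a family with a common seed, which is shown because it defines the sites looked for in the factors' own transcripts. The sequences are the mouse entries of RefSeq (GRCm38.p6), and the labels do not give the sequence of the delivered molecule. Capitals mark the seed, bases 2 to 8. miR-29b-3p is made from chr6:31063025-31063047 on the minus strand and from chr1:195037091-195037113 on the plus strand.
mmu-miR-29b-3p: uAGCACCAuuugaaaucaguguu
mmu-miR-29a-3p: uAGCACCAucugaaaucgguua
mmu-miR-29c-3p: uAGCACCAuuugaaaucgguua

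Perfect matches to this seed were searched in the 3′ UTR of each gene, taking the protein-coding GENCODE transcript with the longest 3′ UTR (GRCm38). The word TGGTGCT pairs with the whole seed, the word GGTGCTA pairs with all but its last base and adds an A opposite the first base of the microRNA, and the word TGGTGCTA does both. Among the factors, Tal1 and Foxo3 held a match of at least 7 bases, 2 of 9 genes, against 2138 of the 11189 tested genes with a 3′ UTR (19.1%). In Tal1 the match stands at bases 854 to 860 of a 3′ UTR of 3030 bases, and in Foxo3 at bases 1296 to 1302 of 4490 bases. The matching stretches follow, with the match in capitals and given on the strand of the gene.
Tal1, chr4:115069568-115069596, plus strand: gcattgcatgtTGGTGCTggggctgtgca
Foxo3, chr10:42185018-42185046, minus strand: ccaaaaagttaTGGTGCTgtataggtgct
A 6-base match, GGTGCT, follows in Foxo3 at bases 1308 to 1313, at the end of the printed stretch. The 3′ UTRs of Klf3 (3743 bases), Ldb1 (1541), Lmo2 (784), Gfi1b (575), Gata1 (497), Klf1 (352) and Zfpm1 (60) held none of these words, where the median tested gene had 1159 bases.

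Promoters are given for the 2 genes whose week 2 call in the MIR29B arm was the firmest, Zfpm1 and Klf3, and for Klf1, whose promoter, like that of Tal1, held words of 3 of the 4 motifs searched. Each runs from 250 bases before to 50 bases after the RefSeq start (GRCm38.p6). Capitals mark GATA words on either strand, that is AGATAA or, as further forms, TGATAA and also AGATAG or its close relative TGATAG, and the word CACCC, likewise on either strand. These words can overlap at their ends, and did not in the promoters shown, where the E-box of Klf1 is left in lower case.
Zfpm1, chr8:122281891-122282190, plus strand: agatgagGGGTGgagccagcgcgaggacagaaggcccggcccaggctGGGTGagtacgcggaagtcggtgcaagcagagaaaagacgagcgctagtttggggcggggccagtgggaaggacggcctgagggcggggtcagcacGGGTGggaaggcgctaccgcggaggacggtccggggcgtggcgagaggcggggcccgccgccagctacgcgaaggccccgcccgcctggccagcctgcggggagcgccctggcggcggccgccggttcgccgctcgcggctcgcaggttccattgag
Klf3, chr5:64803271-64803570, plus strand: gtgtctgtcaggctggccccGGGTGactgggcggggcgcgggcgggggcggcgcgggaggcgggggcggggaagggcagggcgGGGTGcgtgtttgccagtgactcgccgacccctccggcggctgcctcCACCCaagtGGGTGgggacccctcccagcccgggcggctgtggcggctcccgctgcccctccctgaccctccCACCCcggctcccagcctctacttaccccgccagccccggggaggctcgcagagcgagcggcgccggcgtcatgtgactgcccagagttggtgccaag
Klf1, chr8:84901732-84902031, plus strand: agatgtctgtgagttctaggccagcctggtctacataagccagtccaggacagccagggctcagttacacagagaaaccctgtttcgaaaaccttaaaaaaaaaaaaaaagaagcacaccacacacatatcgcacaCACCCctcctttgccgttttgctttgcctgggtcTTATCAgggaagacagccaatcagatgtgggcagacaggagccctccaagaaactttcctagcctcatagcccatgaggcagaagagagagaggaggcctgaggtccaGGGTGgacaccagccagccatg
A GATA word was found in 4 of the 11 promoters listed for 8 of the factors, those of Klf1, Tal1, Ldb1 and Gfi1b, against 29.8% of all 32851 promoters. CACCC was found in 9 of the 11, against 57.5%, with 5 copies in Klf3 and 3 in Zfpm1. The E-box CAGATG, a word bound by TAL1 with its partners, was found in 2 of the 11 (Klf1 and Tal1), against 17.2%. The forkhead word GTAAACA was found in 0 of the 11, against 3.65%. These are matches of letters and were not tested as binding sites.

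Levels are given as CPM, counts scaled to a common library size, on library sizes scaled by the trimmed mean of M values. The libraries held 10.7 M to 45.65 M counts (M, mega), with a median of 29.1 M. In 3 libraries (week 0 2 mg/kg scrambled replicate 1 and week 2 2 mg/kg MIR29B replicates 2 and 3) ribosomal RNA and rows with no gene symbol together took over 5% of the counts. To compare genes with one another, CPM was divided by transcript length. Lmo2 stood far above the other factors on this scale, at 211.7 ± 66.6 CPM per kb (mean ± SD, n = 36 libraries), and it exceeded Foxo3, the next in order, in 36 of 36 libraries. Foxo3 had 23.9 ± 8.73, Klf3 15.3 ± 4.6 and Gata1 13.2 ± 4.87 CPM per kb. Ldb1 followed with 8.52 ± 2.03, Zfpm1 with 7.59 ± 5.91, Klf1 with 4.47 ± 2.85 and Tal1 with 4.07 ± 1.98 CPM per kb.

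Neighbours in that order from Foxo3 down to Tal1 differed by less than the sum of their SDs, and their order was not tested. Within libraries, Foxo3 exceeded Klf3 in 32 of 36, Klf3 exceeded Gata1 in 26 and Gata1 exceeded Ldb1 in 29. Ldb1 exceeded Zfpm1 in 25 and Zfpm1 exceeded Klf1 in 23. Klf1 exceeded Tal1 in 19 of 36 libraries. Gfi1b was lowest, at 0.275 ± 0.227 CPM per kb, below Tal1 in 36 of 36 libraries, and it rested on 322 counts in all with 4 libraries at 0. Zfpm1 varied more between libraries than any other factor except Gfi1b, with a coefficient of variation of 77.8%, against 23.8% for Ldb1, the lowest.

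**Figure D1:**
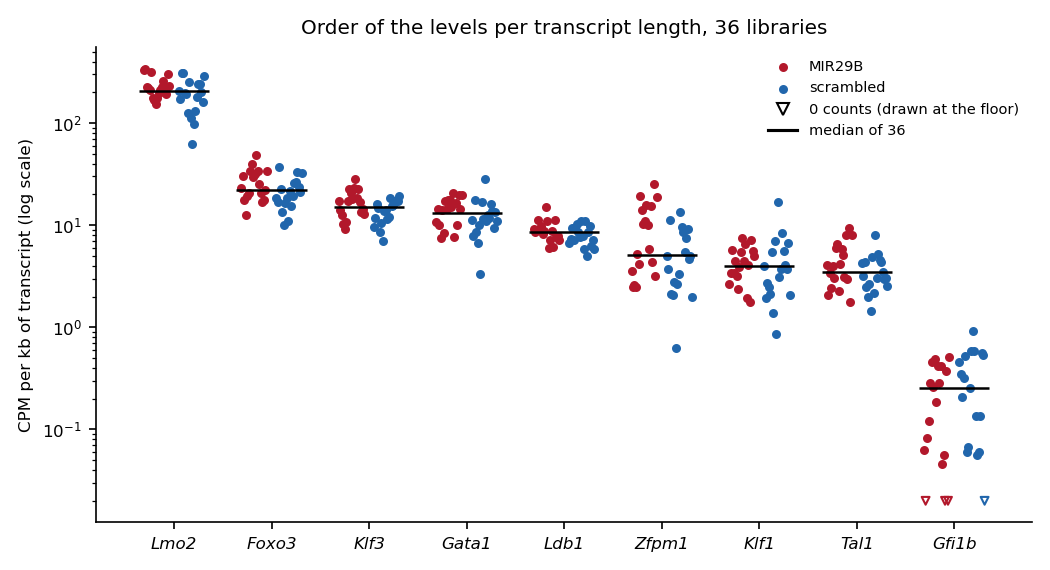
Level of each factor in CPM per kb of transcript (log axis) in the 36 libraries, with MIR29B libraries as red points on the left of each column and scrambled libraries as blue points on the right. The bar is the median; Lmo2 stands alone at the top, with a median of 204.2, and Gfi1b at the bottom, with 4 libraries at 0 counts drawn as open triangles.

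Changes were tested with edgeR's quasi-likelihood test on the counts of all 36 libraries with 12 group means, and a gene is called here where its Benjamini-Hochberg adjusted p over the 11953 genes was under 0.05. At week 2 against week 0 in the MIR29B arm, 3 of the 9 factors were called, all higher at week 2 (Zfpm1, Klf3 and Foxo3), where 5.44% of all tested genes were called. At week 4 against week 0 in the MIR29B arm, 1 of 9 was called (Zfpm1, higher), where 3.09% of all genes were. In the scrambled arm, 1 of 9 was called at week 2 against week 0 (Lmo2, lower), with 3.21% of all genes, and 0 of 9 at week 4 against week 0, with 0.46%. DESeq2 called 3 of 9, 1 of 9, 1 of 9 and 0 of 9 factors in the same 4 comparisons, the same factors each time. In that last comparison 1 factor, Klf3, had an unadjusted p under 0.05, against 9.77% of all genes. Without the 3 libraries rich in ribosomal RNA or rows with no symbol, edgeR called 1 of 9 at week 2 (Zfpm1) and 1 of 9 at week 4 (Zfpm1) against week 0 in the MIR29B arm, and 0 of 9 in both scrambled comparisons. Klf3 at week 2 was then at 0.71 ± 0.27 (adjusted p = 0.213), Foxo3 at 0.80 ± 0.31 (0.235), and Lmo2 in the scrambled arm at -0.90 ± 0.28 (0.0872).

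The median log2 fold change of the 9 factors at week 2 against week 0 was 0.66 in the MIR29B arm, against -0.05 for all tested genes, and 0.28 in the scrambled arm, against -0.01. At week 4 against week 0 it was 0.16 in the MIR29B arm, against -0.01 for all genes, and 0.3 in the scrambled arm, against -0.05. These medians describe the list and carry no test. All libraries are bulk blood, in which fewer cells of a type and less RNA per cell cannot be told apart.

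Gata1 (NM_008089, chrX:7959260-7978071, minus strand) was higher at week 2 than in any week 0 library of the MIR29B arm but did not pass the test. Its week 2 CPM was 33.1, 27.5 and 33.8 at 2 mg/kg and 33.3, 28.6 and 39.5 at 3 mg/kg. The week 0 CPM was 20.3, 27.2 and 19.3 at 2 mg/kg and 14.3, 26.9 and 16 at 3 mg/kg. The 6 week 2 libraries lay above the 6 week 0 libraries with no overlap. The fitted difference was 0.66 ± 0.30 on the log2 scale (SE) and its adjusted p in edgeR was 0.197.

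Scrambled libraries had a lowest, median and highest Gata1 CPM of 6.32, 22.8 and 53.6 at week 2, against 12.6, 17.7 and 33.2 at week 0. The week 2 libraries of that arm spread on both sides of week 0, and the log2 difference was 0.41 ± 0.30 (adjusted p = 0.449). At week 4 Gata1 had 27.9 ± 9.58 CPM in the MIR29B arm and 23.9 ± 4.44 CPM in the scrambled arm (SD, n = 6 each).

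Zfpm1 (NM_009569, chr8:122282141-122337251, plus strand), which encodes the GATA1 cofactor FOG1, had the largest called change of the 9 factors in any of the 20 comparisons made. In the MIR29B arm at week 2 its CPM was 65.9, 47.6 and 34.6 at 2 mg/kg and 37.5, 53.0 and 33.8 at 3 mg/kg. At week 0 it was 12.1, 8.38 and 8.79 at 2 mg/kg and 8.5, 17.8 and 14 at 3 mg/kg. The lowest week 2 library stood well above the highest week 0 library. Zfpm1 averaged 45.4 ± 12.6 CPM at week 2 and 11.6 ± 3.82 CPM at week 0 (SD, n = 6 each), a log2 difference of 1.98 ± 0.41 with an adjusted p of 0.00341 in edgeR.

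At week 4 the MIR29B libraries were widely spread. Zfpm1 CPM was then 20.0, 52.8 and 14.8 at 2 mg/kg and 85.9, 10.9 and 63.6 at 3 mg/kg, and 3 of the 6 libraries stood at or below 20.0, beside a week 0 range of 8.38 to 17.8. The log2 difference to week 0 was 1.78 ± 0.40 (adjusted p = 0.00787 in edgeR). Without the week 4 2 mg/kg MIR29B replicate 2 it was 1.38 ± 0.40, and its adjusted p of 0.056 no longer passed.

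Zfpm1 in the scrambled arm showed a split between the dose groups at week 2. Its CPM at week 2 was 45.9, 32.9 and 29.2 at 3 mg/kg and 2.11, 8.94 and 11.3 at 2 mg/kg. The week 0 CPM was 7.26, 7.09 and 9.44 at 3 mg/kg and 17.0, 12.7 and 38.2 at 2 mg/kg, and at week 4 it was 15.9, 17.0 and 6.67 at 3 mg/kg and 18.5, 25.6 and 31.2 at 2 mg/kg. The 3 mg/kg control group at week 2 thus overlapped the MIR29B groups, while the 2 mg/kg control group did not. Averaged over doses, Zfpm1 in the scrambled arm differed from week 0 by 0.28 ± 0.39 at week 2 (adjusted p = 0.727) and by 0.44 ± 0.39 at week 4 (adjusted p = 0.762).

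**Figure D2:**
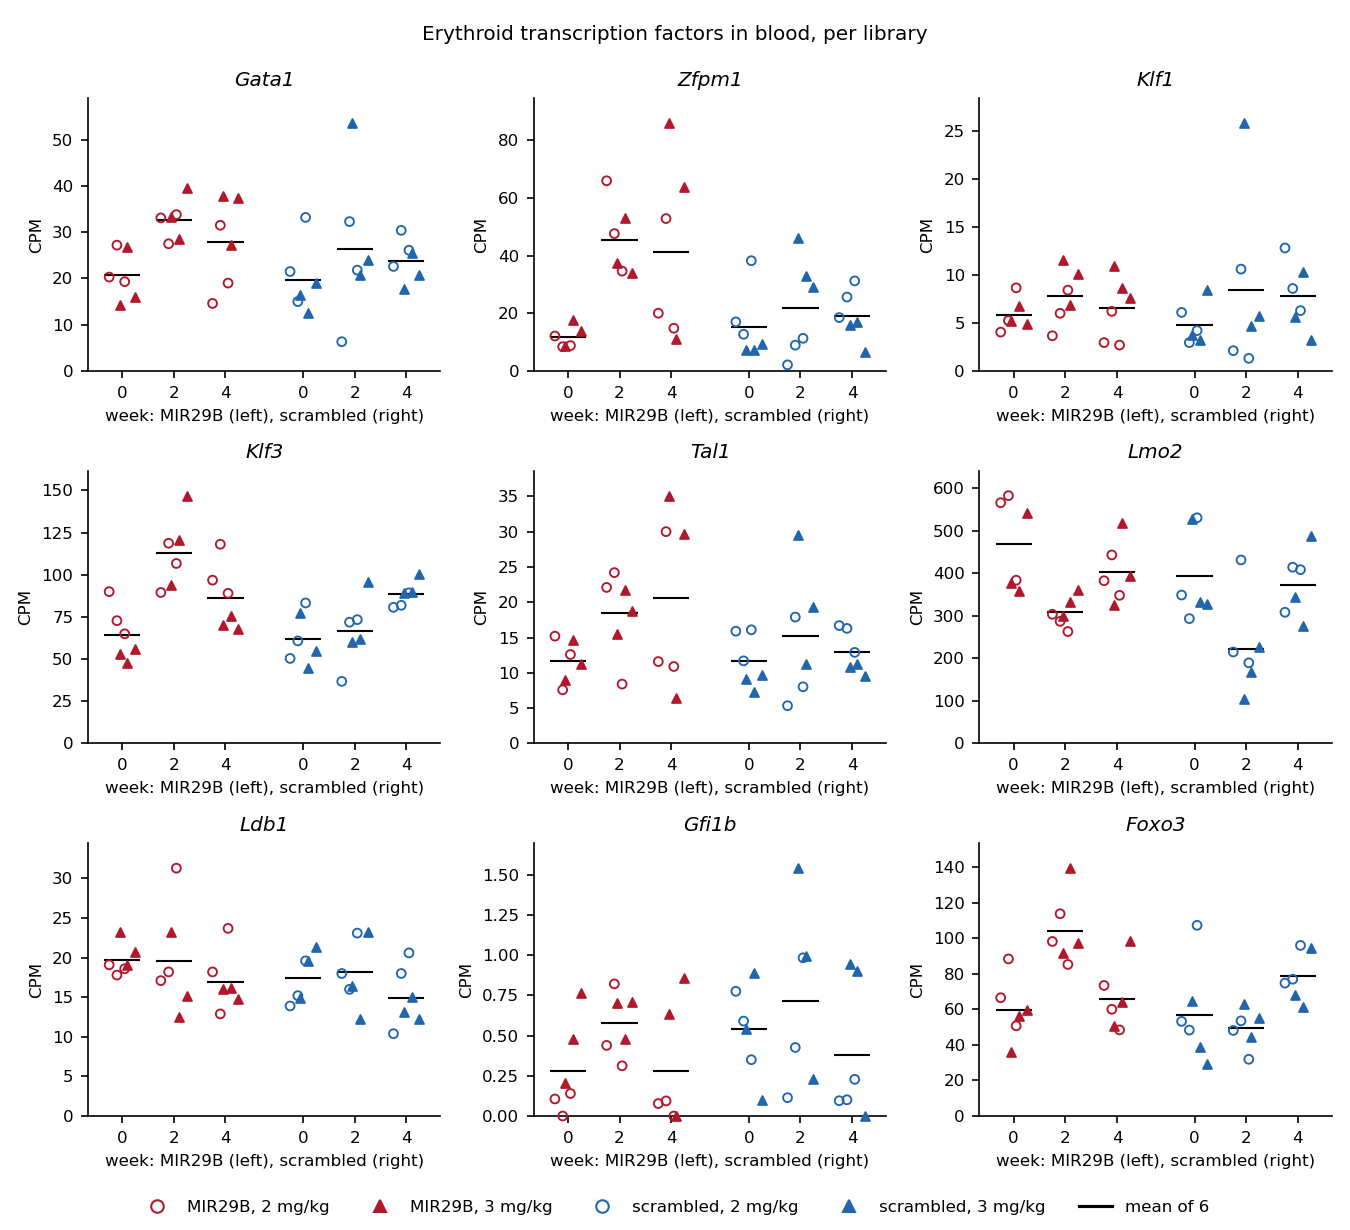
CPM of each factor in every library, by week (x axis) and arm, with MIR29B in red on the left and scrambled in blue on the right of each panel; open circles are 2 mg/kg, filled triangles 3 mg/kg, and the bar is the mean of 6. The Zfpm1 panel shows the MIR29B libraries of week 2 between 33.8 and 65.9 CPM, above those of week 0 at 8.38 to 17.8 CPM.

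Klf1 (NM_010635), the activator of globin and membrane genes, was a low transcript that passed in no comparison. At weeks 0, 2 and 4 it had 5.8 ± 1.66, 7.75 ± 2.84 and 6.49 ± 3.22 CPM in the MIR29B arm. The scrambled arm had 4.77 ± 2.1, 8.38 ± 9.14 and 7.8 ± 3.48 CPM (SD, n = 6 each). A single scrambled library of week 2 at 3 mg/kg, replicate 1, held the highest value, 25.8 CPM. It also held the highest Gata1 (53.6 CPM) and the lowest Lmo2 (105.4 CPM) of all libraries. Its transcript length index, defined below, was the lowest of all (-0.43). The log2 difference of week 2 against week 0 was 0.38 ± 0.42 in the MIR29B arm and 0.66 ± 0.43 in the scrambled arm (adjusted p = 0.681 and 0.392).

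Klf3 (NM_008453, chr5:64803388-64832901, plus strand), the CACCC-binding repressor, rose at week 2 in the MIR29B arm. Its week 2 CPM was 89.5, 118.7 and 106.7 at 2 mg/kg and 93.9, 120.7 and 146.9 at 3 mg/kg. At week 0 it was 90.0, 72.8 and 65.0 at 2 mg/kg and 53.1, 47.5 and 55.8 at 3 mg/kg. The groups overlapped only through the highest week 0 library, and 6 of 6 week 2 libraries exceeded the week 0 mean. The log2 difference was 0.84 ± 0.21 with an adjusted p of 0.0164 in edgeR. The call was lost without the week 0 2 mg/kg MIR29B replicate 3 (0.79, adjusted p = 0.0592) and without the week 2 3 mg/kg MIR29B replicate 3 (0.74, adjusted p = 0.0795).

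Klf3 in the scrambled arm had a lowest, median and highest CPM of 44.8, 58.0 and 83.3 at week 0, then of 36.8, 67.0 and 96.0 at week 2, and of 80.7, 89.2 and 100.2 at week 4. Its week 2 difference to week 0 was 0.10 ± 0.21 (adjusted p = 0.824). At week 4, where 6 of 6 libraries exceeded the week 0 mean, the difference in Klf3 was 0.51 ± 0.21 (adjusted p = 0.388); the MIR29B arm differed by 0.43 ± 0.21 between the same weeks (adjusted p = 0.289).

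Tal1 (NM_001287388), the basic helix-loop-helix factor of the second assembly, passed in no comparison. The SD of its CPM at weeks 0, 2 and 4 was 3.02, 5.76 and 12.3 in the MIR29B arm and 3.65, 8.86 and 2.99 in the scrambled arm (n = 6 each), so that it spread more after week 0 in the MIR29B arm and, in the scrambled arm, at week 2 alone. In the MIR29B arm its CPM at week 4 was 11.6, 30 and 10.9 at 2 mg/kg and 35.1, 6.5 and 29.6 at 3 mg/kg, with high and low values in the same libraries as Zfpm1. At week 0 it was 15.2, 7.6 and 12.6 at 2 mg/kg and 8.97, 14.6 and 11.3 at 3 mg/kg. Week 4 thus lay on both sides of week 0, with a log2 difference of 0.80 ± 0.34 (adjusted p = 0.212). The week 2 difference was 0.66 ± 0.34 in the MIR29B arm and 0.35 ± 0.34 in the scrambled arm (adjusted p = 0.276 and 0.595).

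Lmo2 (NM_008505, chr2:103957986-103981878, plus strand), the bridge between TAL1 and LDB1, fell at week 2 in the scrambled arm. Its CPM there was 214.9, 431.1 and 189.5 at 2 mg/kg and 105.4, 167.6 and 225.7 at 3 mg/kg at week 2. At week 0 it was 348.7, 293.3 and 530.2 at 2 mg/kg and 526.8, 332.7 and 328.8 at 3 mg/kg. Of the 6 week 2 libraries 5 lay below every week 0 library, and the 1 exception was replicate 2 of the 2 mg/kg group. The log2 difference was -0.87 ± 0.24 with an adjusted p of 0.0414 in edgeR.

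That call was among the least stable of the 5. Leaving out 1 library at a time ended it in 8 of 12 fits, with the log2 difference between -1.12 and -0.73 and the adjusted p between 0.00771 and 0.152. The libraries whose removal ended it for Lmo2 were replicates 1 and 3 of the week 0 2 mg/kg scrambled group (-0.90 and -0.73, adjusted p = 0.0695 and 0.135), replicates 1 and 2 of week 0 at 3 mg/kg (-0.74 and -0.93, adjusted p = 0.151 and 0.0813), replicates 1 and 3 of week 2 at 2 mg/kg (-0.77 and -0.76, adjusted p = 0.0588 and 0.152), and replicates 1 and 2 of week 2 at 3 mg/kg (-0.76 and -0.87, adjusted p = 0.116 and 0.0533).

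In the MIR29B arm Lmo2 was also lower at week 2 without being called. Its CPM was 303.5, 286.9 and 262.9 at 2 mg/kg and 299.8, 332.6 and 361.4 at 3 mg/kg at week 2, against 565.6, 582.2 and 383.5 at 2 mg/kg and 377.1, 358.4 and 540.8 at 3 mg/kg at week 0. The groups met only at the highest week 2 and the lowest week 0 library, and the log2 difference was -0.60 ± 0.24 (adjusted p = 0.149). By week 4 Lmo2 stood at 402.0 ± 69.9 CPM in the MIR29B arm and 373.0 ± 78.4 CPM in the scrambled arm, against 467.9 ± 105.2 and 393.4 ± 106.2 CPM at week 0 (SD, n = 6 each).

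Ldb1 (NM_001113408), which pairs with itself to loop enhancers to promoters, had the lowest coefficient of variation of the factors over all 36 libraries, 23.8%. It had 19.8 ± 1.96, 19.6 ± 6.78 and 17.0 ± 3.74 CPM at weeks 0, 2 and 4 in the MIR29B arm and 17.4 ± 3.12, 18.2 ± 4.31 and 14.9 ± 3.78 CPM in the scrambled arm. All of its fitted differences between arms, weeks and doses lay between -0.30 and 0.22 on the log2 scale. None passed.

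Gfi1b (NM_008114), the repressor that recruits the demethylase complex, was near the limit of detection. Its CPM ran from 0 to 1.54, with 1 library at 0 at week 0 and 2 at week 4 in the MIR29B arm and 1 at week 4 in the scrambled arm. Its fitted differences had standard errors of 0.76 to 1.27 on the log2 scale and its biological coefficient of variation, the spread between libraries beyond counting error, was 0.75, the highest of the 9 factors. Neither a change of that size nor its absence was shown.

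Foxo3 (NM_019740, chr10:42181841-42276755, minus strand) rose at week 2 in the MIR29B arm. Its week 2 CPM was 98.1, 113.7 and 85.2 at 2 mg/kg and 91.6, 139.3 and 97.3 at 3 mg/kg. The week 0 CPM was 66.5, 88.3 and 50.7 at 2 mg/kg and 36, 56.3 and 59.4 at 3 mg/kg. A single week 0 library reached into the week 2 range, and the log2 difference was 0.82 ± 0.25 with an adjusted p of 0.047 in edgeR.

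Foxo3 had 48.1, 53.5 and 31.9 CPM at 2 mg/kg and 62.7, 44.5 and 55.3 CPM at 3 mg/kg in the scrambled arm at week 2. Against week 0, with 29.1, 50.7 and 107.2 CPM as the lowest, median and highest library, the scrambled arm differed by -0.17 ± 0.25 (adjusted p = 0.732), a sign that turned when the fit was scaled to erythroid target genes (0.14), or given their summed level (0.04) or that of neutrophil markers (0.17) as a term. At week 4 Foxo3 averaged 65.8 ± 18.4 CPM in the MIR29B arm and 78.7 ± 14 CPM in the scrambled arm (SD, n = 6 each). The week 2 call of Foxo3 in the MIR29B arm lay close to the threshold. It was lost in 11 of the 12 fits that left out 1 library, with an adjusted p of 0.0587 to 0.138 in those 11, and kept only without the week 0 2 mg/kg MIR29B replicate 2 (0.0434).

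**Figure D3:**
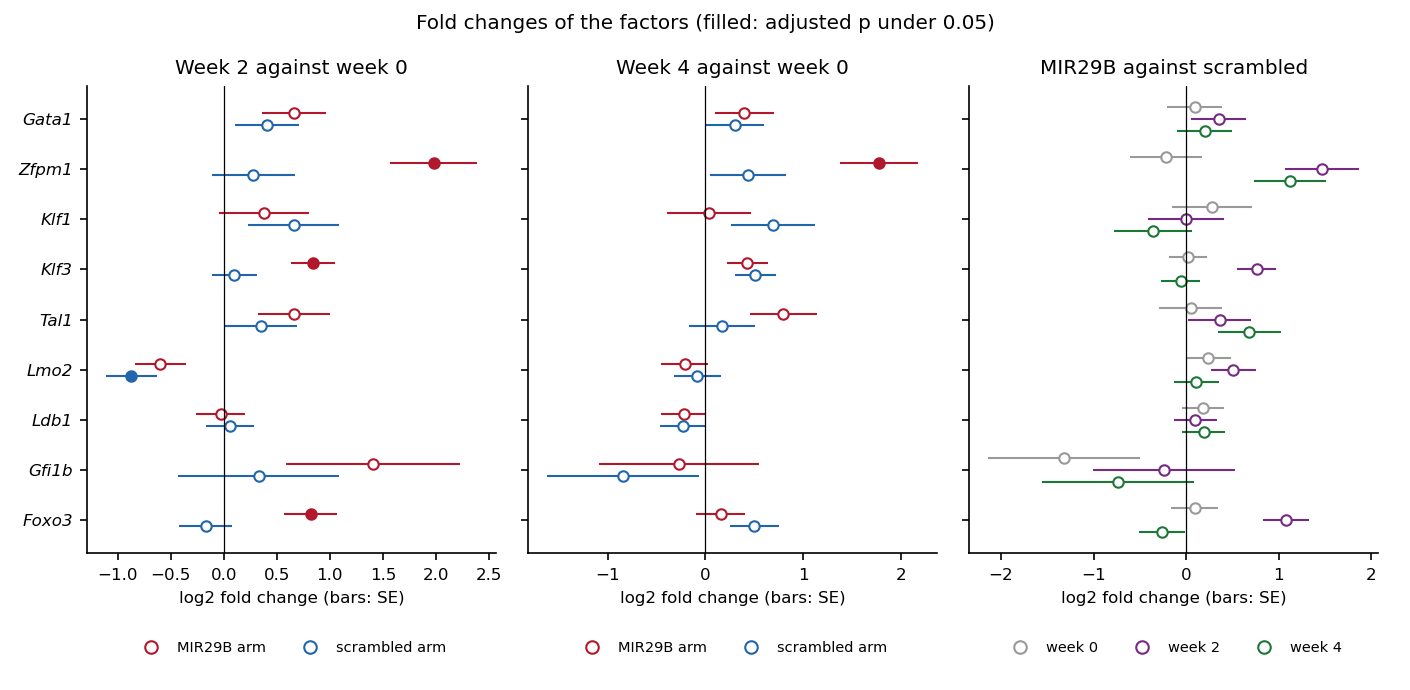
Log2 fold change with its standard error for each factor at week 2 against week 0 (left), at week 4 against week 0 (middle) and between the arms at each week with doses averaged (right). Filled points passed at an adjusted p under 0.05: Zfpm1, Klf3 and Foxo3 at week 2 and Zfpm1 at week 4 in the MIR29B arm, and Lmo2 at week 2 in the scrambled arm.

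The arms were then compared directly within each week. With doses averaged, edgeR called 0 of 9 factors at weeks 0, 2 and 4, and 0 of the 11953 genes (0.0%) in each of the 3 comparisons. At week 2, 4 of 9 factors had an unadjusted p under 0.05, against 9.83% of all genes, and DESeq2 called 3 of them (Foxo3, Zfpm1 and Klf3) among 76 genes. At week 0, 0 of 9 factors had an unadjusted p under 0.05, and at week 4, 1 of 9 (Zfpm1), with 0 of 9 called by DESeq2 at either week. Of all genes 7.13% and 2.64% had such a p at weeks 0 and 4.

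Foxo3 differed most clearly between the arms at week 2. All 6 MIR29B libraries, at 85.2 to 139.3 CPM, lay above all 6 scrambled libraries, at 31.9 to 62.7 CPM, which 1 of 9 factors and 0.376% of all tested genes did in this comparison. The log2 difference of Foxo3 was 1.08 ± 0.25 (unadjusted p = 0.000137, adjusted p = 0.117 in edgeR). DESeq2 gave this difference an adjusted p of 0.00792. At week 0 the arms differed in Foxo3 by 0.09 ± 0.25 and at week 4 by -0.26 ± 0.25. Foxo3 and Tal1 are the 2 of 9 factors with a miR-29 seed match of at least 7 bases, against 19.1% of tested genes. Tal1 differed between the arms at week 2 by 0.36 ± 0.34 (adjusted p = 0.776 in edgeR). Of the 9 factors 8 had a higher fitted value in MIR29B libraries in this comparison, these 2 among them. A link to the seed matches was not tested.

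Zfpm1 differed between the arms at week 2 by 1.47 ± 0.40 on the log2 scale (adjusted p = 0.174 in edgeR and 0.0344 in DESeq2), with 45.4 ± 12.6 CPM in MIR29B libraries and 21.7 ± 16.8 CPM in scrambled libraries (SD, n = 6 each). Klf3 differed by 0.76 ± 0.21 (adjusted p = 0.188 in edgeR and 0.0344 in DESeq2), with 112.7 ± 21.0 CPM in MIR29B libraries and 66.7 ± 19.4 CPM in scrambled libraries. Lmo2 differed by 0.51 ± 0.24 (adjusted p = 0.487), and by -0.01 with the summed level of erythroid target genes as a term in the fit. Neutrophil markers summed to 1002.4 to 2054.9 CPM in MIR29B libraries and 1099.5 to 3613.4 CPM in scrambled libraries at week 2, with 0 of 20 called by edgeR, 9 at an unadjusted p under 0.05 and 1 called by DESeq2. Of these markers 2 of 20 were higher in MIR29B libraries at week 2, with a median log2 difference of -0.80. Monocyte markers summed to 272.0 to 452.5 CPM in MIR29B libraries and 299.1 to 919.4 CPM in scrambled libraries, and 0 of 15 were higher in MIR29B libraries, with a median of -0.74, 0 called by edgeR, 6 at an unadjusted p under 0.05 and 2 called by DESeq2.

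The arms differed in neutrophil markers at week 0 as well, where 0 of 20 were higher in MIR29B libraries, with a median of -1.05, 0 called by edgeR, 15 at an unadjusted p under 0.05 and 2 called by DESeq2. With the summed neutrophil level as a term in the fit, the week 2 difference between the arms was 0.92 ± 0.27 for Foxo3 (adjusted p = 0.985 in edgeR), 1.1 ± 0.43 for Zfpm1 and 0.66 ± 0.22 for Klf3 (adjusted p = 1.0 for both). The 3 fitted values were higher in MIR29B libraries and smaller than without the term. In edgeR no factor of the 3 was called in either fit. The part of neutrophils in these differences was not tested beyond this fit. That of monocytes and of red cell markers was not tested.

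By dose, the difference in Zfpm1 between the arms had no constant order. At week 2 it was 2.74 ± 0.59 at 2 mg/kg (unadjusted p = 5.11e-05, adjusted p = 0.203) and 0.20 ± 0.55 at 3 mg/kg (adjusted p = 0.973). At week 4 the larger value was at the other dose, with 0.22 ± 0.55 at 2 mg/kg (adjusted p = 1.0) and 2.02 ± 0.57 at 3 mg/kg (unadjusted p = 0.00123, adjusted p = 1.0). At week 0 Zfpm1 differed by -1.21 ± 0.56 at 2 mg/kg (adjusted p = 0.876) and by 0.76 ± 0.56 at 3 mg/kg (adjusted p = 1.0). Foxo3 differed at week 2 by 1.15 ± 0.36 at 2 mg/kg and by 1.01 ± 0.36 at 3 mg/kg, and Klf3 by 0.79 ± 0.30 and by 0.73 ± 0.30. Lmo2 differed by 0.03 ± 0.34 at 2 mg/kg and by 0.99 ± 0.35 at 3 mg/kg. The difference between these dose values was not tested. At each of the 6 week and dose pairs edgeR called 0 of 9 factors and 0.0% of all genes, with 2, 0, 3, 3, 0 and 2 factors at an unadjusted p under 0.05 (week 0 at 2 and 3 mg/kg, week 2 at 2 and 3 mg/kg, week 4 at 2 and 3 mg/kg). The shares of all tested genes were 4.63, 3.41, 8.22, 7.09, 2.25 and 3.2%, in the same order. DESeq2 called 1 factor in these comparisons, Zfpm1 at week 2 and 2 mg/kg.

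Whether the change from week 0 differed between the arms was tested directly. At week 2 the MIR29B change exceeded the scrambled change by 1.70 ± 0.56 for Zfpm1 (unadjusted p = 0.00458, adjusted p = 0.838), by 1.0 ± 0.35 for Foxo3 and by 0.74 ± 0.30 for Klf3 (adjusted p = 0.838 and 0.859). At week 4 it did so by 1.34 ± 0.56 for Zfpm1 (adjusted p = 0.78). In both weeks edgeR called 0 of 9 factors and 0.0% of all genes, and DESeq2 called 0 of 9. At weeks 2 and 4, 3 of 9 and 1 of 9 factors had an unadjusted p under 0.05, against 5.61% and 6.03% of all genes. The calls within an arm are therefore not shown to differ between the arms. They also share the week 0 libraries of their arm, as the week 2 and week 4 comparisons do.

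Other pairs of conditions gave no call. For week 4 against week 2, edgeR called 0 of 9 factors and 0.0% of all genes in each arm, with 2 of 9 at an unadjusted p under 0.05 in each (Foxo3 and Gfi1b in the MIR29B arm, Foxo3 and Lmo2 in the scrambled arm). Foxo3 differed by -0.67 ± 0.25 in the MIR29B arm and by 0.68 ± 0.25 in the scrambled arm (adjusted p = 0.354 and 0.321). For 3 against 2 mg/kg over weeks 2 and 4, edgeR called 0 of 9 factors in the MIR29B arm, in the scrambled arm and in the difference between them, with 0.0% of all genes each time and 1, 0 and 0 factors at an unadjusted p under 0.05. The factor was Klf1 in the MIR29B arm, at 0.93 ± 0.43 (adjusted p = 1.0), with 6 of 6 libraries of 3 mg/kg above the 2 mg/kg mean. Of all genes 2.13, 5.43 and 3.24% had an unadjusted p under 0.05 in the dose comparisons, in the same order. DESeq2 called 0 of 9 in all 5 comparisons of this paragraph.

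Counts of libraries that did not overlap were read against all genes as well. At week 2 against week 0 in the MIR29B arm, 2 of 9 factors (Gata1 and Zfpm1, both higher) did not overlap, against 4.86% of all tested genes. The count was 0 of 9 at week 4 against week 0 in that arm (3.73% of all genes), 0 of 9 for the scrambled arm at week 2 (0.912%) and at week 4 (1.66%) against week 0, and 0 of 9 between the arms at week 4 (0.151%).

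Across the 36 libraries the factors did not move as 1 group. Pearson's r of log2(CPM + 1) was 0.82 between Zfpm1 and Tal1 (Spearman's rho 0.79), 0.76 between Gata1 and Zfpm1 (0.73), 0.70 between Gata1 and Tal1 (0.65) and 0.67 between Gata1 and Klf1 (0.64). With the group means removed these were 0.78, 0.64, 0.56 and 0.59. Klf3 and Foxo3 reached 0.65 (0.68), and 0.30 with the group means removed.

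Lmo2 stood apart from Gata1, Zfpm1 and Tal1. Its r was -0.08 with Gata1, -0.21 with Zfpm1 and -0.13 with Tal1, its partner in the second assembly, and -0.05 with Ldb1, which it binds. With the group means removed it had 0.60 with Klf3 and 0.58 with Foxo3, against 0.17 and 0.27 over all libraries, and 0.14 with Gata1, -0.05 with Zfpm1, 0.02 with Tal1 and -0.09 with Ldb1. Ldb1 had r between -0.29 and -0.05 with every other factor. These correlations are descriptions over libraries that share arm, week, depth and blood cell makeup.

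**Figure D4:**
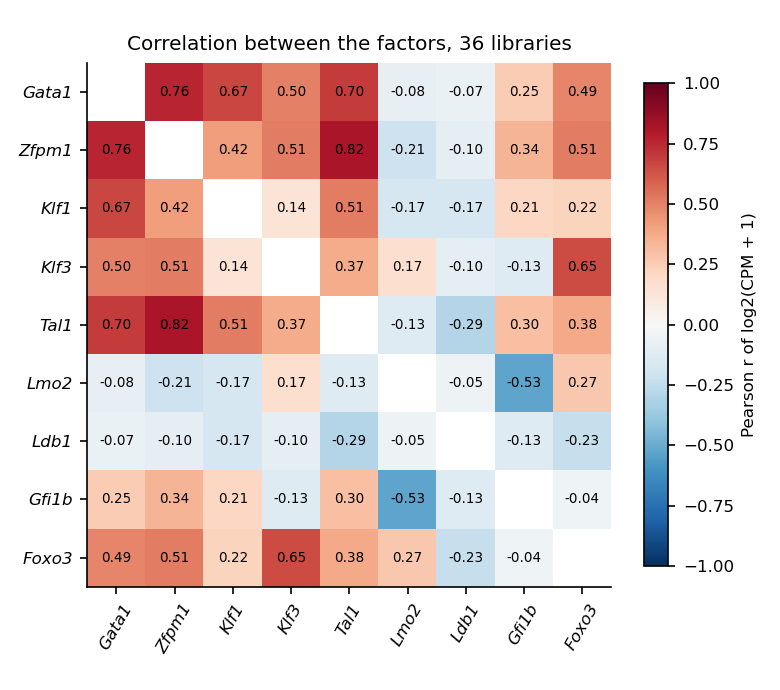
Pearson's r of log2(CPM + 1) between each pair of factors over the 36 libraries, on a scale from -1 (blue) to 1 (red). Gata1, Zfpm1, Tal1 and Klf1 have r of 0.42 to 0.82 with each other, and Klf3 and Foxo3 have r of 0.49 to 0.51 with Gata1 and Zfpm1. Lmo2 and Ldb1 have r between -0.21 and 0.17 and between -0.29 and -0.05 with the other factors, apart from Lmo2 with Foxo3 (0.27) and with Gfi1b (-0.53).

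The genes most like each factor over the 36 libraries, by Pearson's r among all tested genes with a symbol, differed from factor to factor. For Gata1 they included Ube2v1 (r = 0.89) and Fam234b (0.89). For Zfpm1 they were Ubr4 (0.90), Galnt10 (0.90) and Slc6a9 (0.89), the glycine transporter of red cell precursors. Tal1 had Gucd1 (0.91), Ubap1 (0.89) and Tmem131l (0.89).

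Lmo2 was most like Bnip3l (r = 0.92), the receptor that removes mitochondria from reticulocytes, then Dnajb6 (0.89) and Tcea1 (0.88). For Foxo3 they were Isyna1 (0.83), Mcm2 (0.81) and Rffl (0.80), for Klf3 Dhrs11 (0.81), Cpeb3 (0.81) and Ube2o (0.79), the last a ubiquitin ligase that remodels the proteome of reticulocytes, and for Klf1 Vdac3 (0.82), Lancl1 (0.79) and Abat (0.78). Ldb1 had Evl (0.77), Blnk (0.74) and Grap (0.73), of which Blnk is a B cell adaptor. Gfi1b reached only 0.61 with Gtse1, then Eloa (0.60) and Psrc1 (0.60).

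Of 34 partner genes, which encode subunits of the corepressor and coactivator complexes and other proteins that bind the factors, all were tested. At week 2 against week 0, 2 of 34 were called in the MIR29B arm, both higher, where 5.44% of all tested genes were called. Among them was Ssbp4, which stabilises LDB1 (0.86 ± 0.23, adjusted p = 0.0237 in edgeR). The scrambled arm had 1 call of 34, with 3.21% of all genes called. It was Lmo4, a relative of Lmo2, higher by 1.12 ± 0.32 (adjusted p = 0.0432 in edgeR). At week 4 against week 0, edgeR called 0 of 34 in the MIR29B arm (8 at an unadjusted p under 0.05, and 2 called by DESeq2) and 0 of 34 in the scrambled arm (2 and 0). All tested genes had 3.09% and 0.46% called there, and 17.1% and 9.77% at an unadjusted p under 0.05. The latter share was 9.83% between the arms at week 2. Between the arms at week 2 it called 0 of 34 (4 and 0), with the smallest p for Lmo4 (-0.81 ± 0.32, adjusted p = 0.379) and Gatad2b (1.09 ± 0.44, adjusted p = 0.396). The median of the partners at week 2 in the MIR29B arm was 0.26, against -0.05 for all genes.

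Of 28 other transcription factors of erythroid or megakaryocyte cells and their antagonists, 27 were tested. In the MIR29B arm 5 of 27 were called at week 2 and 6 of 27 at week 4 against week 0, all higher. Of all tested genes 5.44% and 3.09% were called in the same comparisons. Those with the smallest p at week 2 were Mafk (1.18 ± 0.28, adjusted p = 0.00978), a small MAF protein that pairs with NF-E2, Spi1 (1.32 ± 0.34, 0.0184), the myeloid factor PU.1 that opposes GATA1, Klf13 (1.13 ± 0.31, 0.0258) and E2f2 (1.25 ± 0.35, 0.0301). At week 4 they were Klf10 (2.12 ± 0.35, 0.000253), Etv6 (1.49 ± 0.34, 0.00828), Spi1 (1.31 ± 0.34, 0.0244) and Mafk (1.05 ± 0.28, 0.0277). The scrambled libraries gave 1 call at week 2, Spi1 (1.39 ± 0.34, 0.0227), and 0 at week 4 in edgeR (4 at an unadjusted p under 0.05, 1 called by DESeq2). The share of all genes called there was 3.21% and 0.46%, and 9.77% had an unadjusted p under 0.05 at week 4.

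Of 39 erythroid target genes of these factors, 37 were tested. At week 2 against week 0 in the MIR29B arm 4 of 37 were called higher and 1 lower, against 3.45% and 1.99% of all genes. The membrane skeleton genes Ank1 (1.39 ± 0.32, adjusted p = 0.00884) and Add2 (1.47 ± 0.39, 0.0237) and also Tmcc2 (1.24 ± 0.33, 0.0245) were among the higher ones. Scrambled libraries had 2 of 37 higher and 1 lower at week 2, against 2.11% and 1.1% of all genes. The higher ones were Alad, a heme synthesis enzyme (2.63 ± 0.67, 0.0274), and Slc25a38, the mitochondrial glycine carrier (0.99 ± 0.26, 0.0343). At week 4, 1 was called in the MIR29B arm, Aqp1 (1.02 ± 0.30, 0.0483), and 0 in the scrambled arm in edgeR (1 at an unadjusted p under 0.05, 0 in DESeq2). All tested genes had 3.09% and 0.46% called at week 4, and 9.77% at an unadjusted p under 0.05 in the scrambled arm. The target median at week 2 was 0.35 in the MIR29B arm and 0.05 in the scrambled arm, against -0.05 and -0.01 for all genes. Between the arms at week 2 it was 0.46, against -0.09 for all genes. There edgeR called 0 of 37, with 12 at an unadjusted p under 0.05, against 9.83% of all genes, and DESeq2 called 2. The smallest p-values in edgeR were those of Sptb, the beta spectrin chain (1.87 ± 0.49, adjusted p = 0.156), and Trim10 (1.22 ± 0.33, 0.178).

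All 20 listed FOXO3 targets were tested. In the MIR29B arm 2 were called at week 2, both higher: Ulk1, the autophagy kinase (1.19 ± 0.26, adjusted p = 0.00523), and Btg1 (0.76 ± 0.22, 0.037). Both were also called higher at week 4, Btg1 by 0.84 ± 0.22 (0.0277) and Ulk1 by 0.90 ± 0.26 (0.046). The share of all tested genes called in that arm was 5.44% at week 2 and 3.09% at week 4. In edgeR 0 of 20 were called in the scrambled arm at week 2 (2 at an unadjusted p under 0.05, 2 in DESeq2) and at week 4 (1 and 1), with Bnip3l at -0.94 ± 0.27 (0.0504) and Btg1 at 0.73 ± 0.22 (0.0601) at week 2. All tested genes had 3.21% and 0.46% called there, and 20.3% and 9.77% at an unadjusted p under 0.05. Between the arms at week 2, 0 of 20 were called (3 and 0), with Cat, the catalase gene, at 0.86 ± 0.30 (0.336) and Ulk1 at 0.57 ± 0.26 (0.451). There 0.0% of all genes were called and 9.83% had an unadjusted p under 0.05. The list's median at week 2 in the MIR29B arm was 0.05.

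The labelled cell type, erythrocytes, was checked on its markers. The 15 tested genes of reticulocytes and red cells summed to 111398 to 282949 CPM per library after globin depletion, and every library also held markers of white cells and platelets. Neutrophil markers summed to 244.1 to 3613.4 CPM, platelet and megakaryocyte markers to 305.3 to 1899.4 CPM, monocyte markers to 149.3 to 919.4 CPM, and B, T and NK cell markers to 22.3 to 436.8, 77.7 to 252.9 and 14.1 to 152.9 CPM. Markers of eosinophils, basophils and mast cells, which express GATA factors, summed to 6.97 to 87.1 CPM. The list for erythroid precursors, Kit and genes of cell division, summed to 73.8 to 469.3 CPM. Its genes are not particular to red cell precursors. Of the listed red cell genes 1 was not analysed here, and every other gene of these lists had counts.

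Markers of white cells also differed between these weeks. In the MIR29B arm, 13 of 20 neutrophil markers were called higher at week 2 and 10 of 20 at week 4 against week 0, and their sum was 1002.4 to 2054.9 CPM at week 2, against 244.1 to 694.0 CPM at week 0. In the scrambled arm 11 of 20 were called higher at week 2 and 3 of 20 at week 4, with a sum of 1099.5 to 3613.4 CPM at week 2, against 245.6 to 1490.8 CPM at week 0. The shares of all genes called higher at weeks 2 and 4 were 3.45% and 2.64% in the MIR29B arm. They were 2.11% and 0.36% in the scrambled arm. Examples at week 2 in the MIR29B arm were Trem1 (3.11 ± 0.40, adjusted p = 1.26e-05) and Il1r2 (3.62 ± 0.54, 0.000105).

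Monocyte markers had 2 of 15 called higher at week 2 and 3 of 15 at week 4 against week 0 in the MIR29B arm, and 1 of 15 in each week in the scrambled arm. NK cell markers were lower at week 2 in the MIR29B arm, with 0 of 14 higher, a median log2 difference of -1.17 and 1 called lower (5 called by DESeq2), and in the scrambled arm had 0 of 14 higher, a median of -1.27 and 0 called (8 at an unadjusted p under 0.05, 4 called by DESeq2). B cell markers had 3 of 16 higher at week 2 in the MIR29B arm, with a median of -0.58 and 2 called lower, and 5 of 16 higher in the scrambled arm, with a median of -0.44 and 1 called lower. Of all genes 1.99% in the MIR29B arm and 1.1% in the scrambled arm were called lower at week 2.

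With the summed neutrophil level as a term in the fit, the week 2 difference in the MIR29B arm was 2.64 ± 0.51 for Zfpm1 (adjusted p = 0.0153), 1.06 ± 0.28 for Klf3 (0.0745) and 1.14 ± 0.32 for Foxo3 (0.104), and Lmo2 in the scrambled arm was -0.50 ± 0.30 (0.886). That fit called 40 genes in all at week 2 in the MIR29B arm, against 650 without the term. In that arm the neutrophil sums of week 2 (1002.4 to 2054.9 CPM) did not overlap those of week 0 (244.1 to 694.0 CPM). The term and the week are therefore hard to separate in this fit. Platelet and megakaryocyte markers, a list for a lineage that also uses Gata1, Zfpm1, Tal1 and Gfi1b, summed to 382.9 to 846.9 CPM at week 2, against 305.3 to 941.3 CPM at week 0, in the MIR29B arm, with 0 of 18 called higher and 1 lower. The erythroid precursor list (Kit and genes of cell division, not particular to that lineage) summed to 144.6 to 216.1 CPM at week 2 in that arm. At week 0 it summed to 131.7 to 469.3 CPM, with 0 of 13 called higher and 1 lower at week 2. Of all tested genes 3.45% were called higher and 1.99% lower at week 2 against week 0 in that arm. The part of monocytes and lymphocytes in the changes from week 0 was not tested. That of blood cell makeup in the changes of Zfpm1, Klf3, Foxo3 and Lmo2 was not tested beyond these fits.

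**Figure D5:**
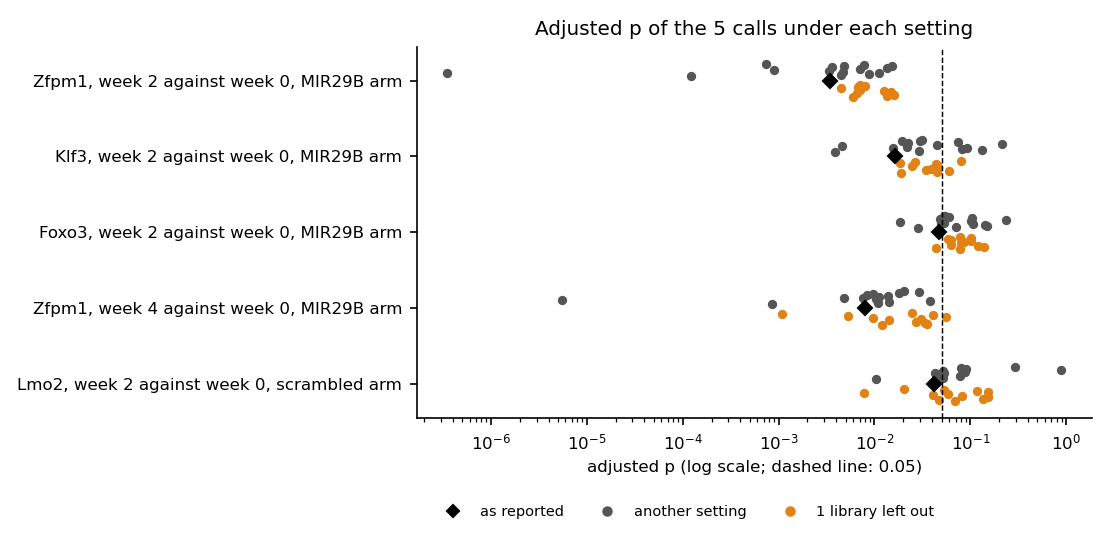
Adjusted p (log axis, threshold 0.05 dashed) of the 5 calls as reported (black diamonds), under 15 other settings (grey) and with 1 of 12 libraries left out at a time (orange). Zfpm1 at week 2 stays under the line throughout, between 3.52e-07 and 0.016, while Foxo3 and Lmo2 lie on both sides of it.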

How the data were processed

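Globin-depleted total RNA of 36 blood samples was sequenced. The deposited values are whole-number counts per RefSeq transcript row, which the authors made with HISAT2 2.0.5 and featureCounts 1.5.0-p3 on GRCm38, per the submitters' processing notes; whether strand was used is not given in the sources used here. All 25856 rows held even counts, so counts halved were an alternative. Symbols came from RefSeq accessions through RefSeq and GENCODE tables, and 74 rows without a symbol (1.04 to 10.07% of a library) kept their accession as a name. The row with the highest total was kept per gene. Genes passed edgeR's filter (minimum count 10, minimum total 15) and were scaled by TMM. With edgeR 4.0.16 (R 4.3.3, limma 3.58.1), 12 group means were modelled over all 36 libraries, and p-values were adjusted by Benjamini-Hochberg over all tested genes in each comparison. The SE of a log2 fold change was taken from the F statistic, as the change over its square root. DESeq2 1.42.0 was an alternative. The transcript length index of a library was the slope of its log2(CPM + 1), less each gene's mean, on log2 transcript length. It ran from -0.43 to 0.24. Named were the 9 factors, list genes that were called, or the 2 with the smallest p, up to 4 per list and comparison, and the 3 genes most like each factor; a few genes that this rule names are not reported here. The members and lists were chosen with earlier results of these data known.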

Additional observations from a re-analysis of the deposited data

Results flagged for a closer look

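In the scrambled arm at week 0, Zfpm1 reached 38.2 CPM in replicate 3 of the 2 mg/kg group, while the other 5 libraries held 7.09 to 17.0 CPM, a gap of 0.681 of the group's range. In the same arm at week 2, Lmo2 had 431.1 CPM in replicate 2 of the 2 mg/kg group, while the other 5 libraries held 105.4 to 225.7 CPM, a gap of 0.631 of the range. Both were picked out as a library far from the rest of its group of 6 by Dixon's test. It was run on 54 groups, and chance alone marks about 1 group in 20. Without that week 2 library, the change of Lmo2 at week 2 against week 0 was -1.12 (adjusted p = 0.00771 in edgeR). No factor had a called difference between the arms in its change from week 0.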

How the results depend on the processing

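The 5 calls were computed under 15 other settings and with each of 12 libraries left out. Zfpm1 at week 2 in the MIR29B arm was called in all 15 settings and all 12 fits (log2 difference 1.78 to 2.64), and Zfpm1 at week 4 in all 15 and in 11 of 12. Klf3 at week 2 was called in 10 of 15 and 10 of 12, Foxo3 in 4 of 15 and 1 of 12, and Lmo2 in the scrambled arm in 6 of 15 and 4 of 12. Of the settings, 4 were chosen after seeing the data: leaving out the 3 libraries rich in ribosomal RNA or rows with no symbol, library sizes without those rows (the reduced library size), and the summed level of neutrophil markers or of erythroid targets as a term. The cause of a lost or gained call was not tested. Gfi1b rested on 322 counts in all, and how far depth limits it was not tested.

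The number of the 9 factors called at week 2 against week 0 in the MIR29B arm, 3 as reported, was 1 with no filter on low counts, without the 3 libraries and with the neutrophil term (Zfpm1), and 1 to 3 leaving out 1 library. It was 2 with RLE size factors, counts halved, without the ribosomal RNA library, with the replicate block and fitted alone (Zfpm1 and Klf3), and 2 with no composition factor and scaled to the erythroid targets (Zfpm1, and Lmo2 lower). It was 3 in DESeq2, with transcript rows summed, the length index and the reduced library size (the 3 reported), and 3 with the erythroid term, where Lmo2, lower, stood in place of Foxo3. At week 4 against week 0 in that arm it was 0 to 1 leaving out 1 library. In the scrambled arm at week 2 against week 0, 1 as reported, it was 0 with no composition factor, no filter, without the ribosomal RNA library, without the 3 libraries, with the reduced library size, the neutrophil term, the erythroid term or the replicate block and fitted alone, and 0 to 1 leaving out 1 library. At week 4 against week 2 in the scrambled arm, 0 as reported, it was 1 scaled to the erythroid targets (Ldb1) and 0 to 1 leaving out 1 library (Lmo2, without the week 2 2 mg/kg scrambled replicate 2). Between MIR29B and scrambled libraries at week 2, 0 as reported, it was 3 in DESeq2, 2 with no filter (Zfpm1 and Foxo3) and 1 with the transcript length index (Foxo3). At week 2 and 2 mg/kg, 0 as reported, it was 1 in DESeq2, with no filter and with the length index, and it was 1 with no filter at week 4 in the 3 mg/kg groups. The difference between arms in the week 2 change, 0 as reported, was 1 with no filter.

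Whether replicate numbers pair the libraries is not given in the labels. Deviations from the group means of same-numbered libraries had a median correlation of 0.07 across weeks, with 15 of 36 pairs over 0.1, and of 0.09 across arms, with 8 of 18. Differently numbered libraries had a median of -0.06 across weeks, with 26 of 72 pairs over 0.1, and of -0.04 across arms, with 12 of 36. These values do not settle whether same numbers mark the same animals. With the replicate block the call of Lmo2 (-0.91, adjusted p = 0.0797 in edgeR) and that of Foxo3 (0.85, adjusted p = 0.053) were lost, and the other 3 calls held. The block moved the calls over all genes to 439 against 650 and to 290 against 369 at weeks 2 and 4 in the MIR29B arm, and to 109 against 384 and to 41 against 55 in the scrambled arm.

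Library scaling moves every gene. With no composition factor the median of all genes shifted by -0.55 to 0.33 on the log2 scale over the comparisons, and scaled to the erythroid targets by -0.63 to 0.22, and the factors' values move with it. Signs turned in 125 values, none of them called; each is given with the reported log2 value in brackets. The following are for MIR29B against scrambled at week 0 with doses averaged. Gata1 (0.09) had -0.09 with no composition factor, -0.14 with the transcript length index, -0.03 with the neutrophil term and -0.07 to 0.30 leaving out 1 library. Zfpm1 (-0.22) had -0.35 to 0.11 leaving out 1 library. Klf3 (0.02) had -0.13 with no composition factor, -0.03 scaled to the erythroid targets, -0.02 without the 3 libraries, -0.09 with the neutrophil term, -0.01 with the erythroid term and -0.06 to 0.17 leaving out 1 library. Tal1 (0.05) had -0.10 with no composition factor, -0.24 with the neutrophil term and -0.04 to 0.20 leaving out 1 library. Ldb1 (0.18) had -0.01 with no composition factor. Foxo3 (0.09) had -0.08 with no composition factor, -0.04 with the neutrophil term and -0.03 to 0.34 leaving out 1 library. These values concern MIR29B against scrambled at week 2 with doses averaged. Gata1 (0.35) had -0.10 scaled to the erythroid targets. Klf1 (0.00) had -0.03 in DESeq2, -0.03 with RLE size factors, -0.23 with no composition factor, -0.43 scaled to the erythroid targets, -0.04 with counts halved, -0.37 without the 3 libraries, -0.14 with the neutrophil term and -0.23 to 0.74 leaving out 1 library. Tal1 (0.36) had -0.09 scaled to the erythroid targets. Lmo2 (0.51) had -0.01 with the erythroid term. Ldb1 (0.10) had -0.38 with no composition factor, -0.37 scaled to the erythroid targets, -0.08 without the 3 libraries, -0.03 with the neutrophil term and -0.05 to 0.23 leaving out 1 library. Gfi1b (-0.24) had -0.53 to 0.23 leaving out 1 library. The following are for MIR29B against scrambled at week 4 with doses averaged. Klf3 (-0.06) had 0.07 with no composition factor. These values concern week 2 against week 0 in the MIR29B arm. Ldb1 (-0.03) had 0.04 without the ribosomal RNA library, 0.21 with the neutrophil term and -0.20 to 0.07 leaving out 1 library. The following are for week 4 against week 0 in the MIR29B arm. Klf1 (0.04) had -0.01 with no composition factor, -0.27 scaled to the erythroid targets and -0.22 to 0.21 leaving out 1 library. Lmo2 (-0.21) had 0.13 with the neutrophil term. Gfi1b (-0.27) had 0.18 with the neutrophil term. Foxo3 (0.16) had -0.07 scaled to the erythroid targets and -0.02 to 0.26 leaving out 1 library. These values concern week 4 against week 2 in the MIR29B arm. Gata1 (-0.26) had 0.07 with the transcript length index. Zfpm1 (-0.19) had -0.60 to 0.03 leaving out 1 library. Klf1 (-0.33) had 0.16 with the transcript length index and 0.02 without the 3 libraries. Tal1 (0.14) had -0.20 to 0.35 leaving out 1 library. Ldb1 (-0.19) had 0.04 with no composition factor. The following are for week 2 against week 0 in the scrambled arm. Gata1 (0.41) had -0.07 with the transcript length index. Klf1 (0.66) had 0.00 with the transcript length index and -0.04 to 0.94 leaving out 1 library. Klf3 (0.10) had -0.02 to 0.26 leaving out 1 library. Ldb1 (0.06) had -0.04 with the transcript length index and -0.08 to 0.16 leaving out 1 library. Gfi1b (0.33) had -0.13 to 0.67 leaving out 1 library. Foxo3 (-0.17) had 0.14 scaled to the erythroid targets, 0.17 with the neutrophil term, 0.04 with the erythroid term and -0.29 to 0.06 leaving out 1 library. These values concern week 4 against week 0 in the scrambled arm. Gata1 (0.30) had -0.03 with no composition factor and -0.05 scaled to the erythroid targets. Tal1 (0.17) had -0.18 with no composition factor and -0.19 scaled to the erythroid targets. Lmo2 (-0.08) had 0.17 with the neutrophil term and -0.21 to 0.06 leaving out 1 library. The following are for week 4 against week 2 in the scrambled arm. Gata1 (-0.11) had 0.20 with the transcript length index, 0.02 with the replicate block and -0.36 to 0.18 leaving out 1 library. Zfpm1 (0.16) had -0.09 with no composition factor, -0.42 scaled to the erythroid targets, -0.18 with the neutrophil term, -0.11 with the erythroid term and -0.09 to 0.38 leaving out 1 library. Klf1 (0.03) had -0.03 in DESeq2, -0.03 with RLE size factors, -0.11 with no composition factor, -0.49 scaled to the erythroid targets, -0.01 with counts halved, -0.01 without the ribosomal RNA library, 0.00 without the 3 libraries, -0.06 with the neutrophil term, -0.03 fitted alone and -0.27 to 0.72 leaving out 1 library. Klf3 (0.41) had -0.15 scaled to the erythroid targets. Tal1 (-0.18) had -0.38 to 0.13 leaving out 1 library.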
